A study of Mus musculus with 2 samples.

Results

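The genes described here were 8 members of the dystrophin-associated complex of skeletal muscle, chosen by name: Dmd, Utrn, Dag1, Sgca, Sgcb, Sgcd, Sspn and Sntb1. All 8 were among the 53700 genes of the count tables, each under a single identifier. Levels came from single-nucleus RNA sequencing of quadriceps, the large thigh extensor, of mice aged 3 months. One group was WT, labelled as normal muscle, and the other was PTRF KO, that is, mice without Cavin1 (older symbol Ptrf), the coat protein of caveolae. No other allele, agent or treatment is given in the labels for either group, nor how the knockout allele was made. There was 1 library per genotype. How many mice, and of which sex, each library held is not given in the labels, so no difference between genotypes below has a replicate check, and the intervals printed cover counting error only.

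Dystrophin, the product of Dmd, ties the cortical actin of the muscle fibre to a group of membrane proteins, and these bind laminin in the surrounding matrix. Dystroglycan, encoded by Dag1, spans the membrane and is the laminin receptor of the complex, the sarcoglycans and sarcospan form a subcomplex beside it, and syntrophins bind dystrophin on the inner face as adaptors for signalling proteins. Utrophin, the product of Utrn, is the autosomal relative of dystrophin and is concentrated at the neuromuscular junction of mature fibres. Loss of dystrophin causes Duchenne muscular dystrophy, and loss of single sarcoglycans causes limb-girdle dystrophies.

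These genes differ widely in size, which matters in nuclei because much of the RNA there is unspliced. On the GRCm38 assembly with GENCODE M21 annotation, Dmd (chrX:82948870-85206141, plus strand) spans 2257 kb, of which exons make up 1.05%. Sgcd (chr11:46896253-47988969, minus strand) spans 1093 kb, Utrn (chr10:12382188-12869365, minus strand) 487 kb and Sntb1 (chr15:55636388-55906949, minus strand) 271 kb. The remaining members are short: Dag1 (chr9:108204634-108263958, minus strand) spans 59.3 kb, Sspn (chr6:145931641-145965223, plus strand) 33.6 kb, Sgcb (chr5:73632749-73647790, minus strand) 15.04 kb and Sgca (chr11:94962791-94976327, minus strand) 13.5 kb. Dag1 and Sntb1 overlapped no other annotated gene. Dmd, Utrn, Sgcb, Sgcd and Sspn held annotated genes on their own strand, and Sgca overlapped Hils1 on the opposite strand, so part of their UMIs (unique molecular identifiers, 1 per captured RNA molecule) is of uncertain origin; the labels and headers do not say whether counting used strand.

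RefSeq promoter windows of GRCm38.p6 matched 7 of the 8 members. Shown here are the 250 bases before the start of Dmd's full-length muscle transcript and of a short Dmd transcript that starts far inside the gene. The same is shown for an annotated Sgcd transcript, which also starts far inside its gene, and for Sgca. Counts per gene cannot tell Dmd's starts apart. Dmd and Sgcd were the members that were higher in the knockout library, while Sgca was not. Each is written 5′ to 3′ on the gene's strand, at chrX:82948620-82948869 (plus), chrX:85048045-85048294 (plus), chr11:47379326-47379575 (minus) and chr11:94976328-94976577 (minus). Capitals mark E-boxes, CANNTG, the letters bound by myogenic bHLH factors, and the CArG box, the letters bound by serum response factor; both motifs read the same on either strand, and none of the matches overlapped.
Dmd, full-length start: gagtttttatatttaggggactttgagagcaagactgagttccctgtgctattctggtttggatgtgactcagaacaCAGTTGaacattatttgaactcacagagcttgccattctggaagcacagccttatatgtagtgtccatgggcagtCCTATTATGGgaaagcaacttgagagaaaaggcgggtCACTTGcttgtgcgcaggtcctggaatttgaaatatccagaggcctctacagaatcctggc
Dmd, internal start: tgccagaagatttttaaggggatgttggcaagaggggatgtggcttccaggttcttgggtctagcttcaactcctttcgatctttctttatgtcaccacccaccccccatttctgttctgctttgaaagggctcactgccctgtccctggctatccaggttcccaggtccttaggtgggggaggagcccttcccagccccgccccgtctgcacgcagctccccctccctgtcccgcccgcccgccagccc
Sgcd: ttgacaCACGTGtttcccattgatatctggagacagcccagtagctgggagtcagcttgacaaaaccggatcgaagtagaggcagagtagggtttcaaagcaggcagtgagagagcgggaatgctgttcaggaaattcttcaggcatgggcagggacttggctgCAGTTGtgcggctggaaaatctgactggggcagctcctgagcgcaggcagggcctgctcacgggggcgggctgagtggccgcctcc
Sgca: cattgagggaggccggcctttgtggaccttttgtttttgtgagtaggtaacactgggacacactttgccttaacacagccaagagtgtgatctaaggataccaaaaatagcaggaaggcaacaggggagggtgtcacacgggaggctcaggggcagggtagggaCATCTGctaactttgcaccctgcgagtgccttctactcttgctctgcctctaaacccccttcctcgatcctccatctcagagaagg
The full-length Dmd window held 2 E-boxes and 1 CArG box, the internal one neither. The Sgcd window held 2 E-boxes and the Sgca window 1, without a CArG box. Of all 32851 RefSeq windows of this length, 66.2% held an E-box and 1.47% a CArG box. A match is a run of letters and says nothing of binding.

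After filtering, 10272 WT and 7762 knockout nuclei were kept, with a median of 703 and 1562 UMIs per nucleus and totals of 9746980 and 16052317 UMIs over all barcodes. The libraries stood apart in more than depth: the ribosomal RNA gene Rn18s took 8.07% of UMIs in WT and 2.90% in the knockout, and 24 barcodes occurred in both libraries. Cavin1 itself had 75 UMIs in WT and 2 in the knockout. Nuclei fell into 23 clusters, named from marker genes. Myonuclei, the nuclei of muscle fibres, numbered 7871 in WT and 5406 in the knockout and gave 7.04% and 4.94% of their UMIs to Ttn, the giant sarcomere gene; WT myonuclei lay mostly in clusters 4, 0 and 6 and knockout myonuclei mostly in clusters 10 and 1. Nuclei with Y-linked UMIs and no Xist (Y-marked) numbered 2721 in WT and 3103 in the knockout. Nuclei with Xist and no Y-linked UMI (Xist-marked) numbered 2 and 1527. Myonuclei held 2209 and 2743 of the Y-marked and 2 and 574 of the Xist-marked nuclei. Most Xist-marked knockout nuclei thus lay outside the myonuclei, and there they outnumbered the Y-marked ones. Knockout over WT ratios outside the fibres therefore also compare nuclei of unlike sex-chromosome signal.

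In myonuclei, Dmd and Sgcd were higher in the knockout library, Sntb1 was lower, and Utrn, Dag1, Sgca, Sgcb and Sspn differed by less than 1.5-fold. Thus 2 of 8 members were higher by at least 1.5-fold, against 12.8% of the 15048 genes with at least 20 UMIs in the 2 sums, and 1 was lower, against 29.9%. All 8 members had at least 20 UMIs. Their median knockout over WT log2 ratio was 0.15, and that of all genes was -0.10. Levels below are UMIs of a gene per 1000000 UMIs of a class of nuclei (CPM). Summed, the 8 genes took 14839 CPM of WT and 27595 CPM of knockout myonuclear UMIs, and without Dmd 1736 and 3021 CPM.

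**Figure D1:**
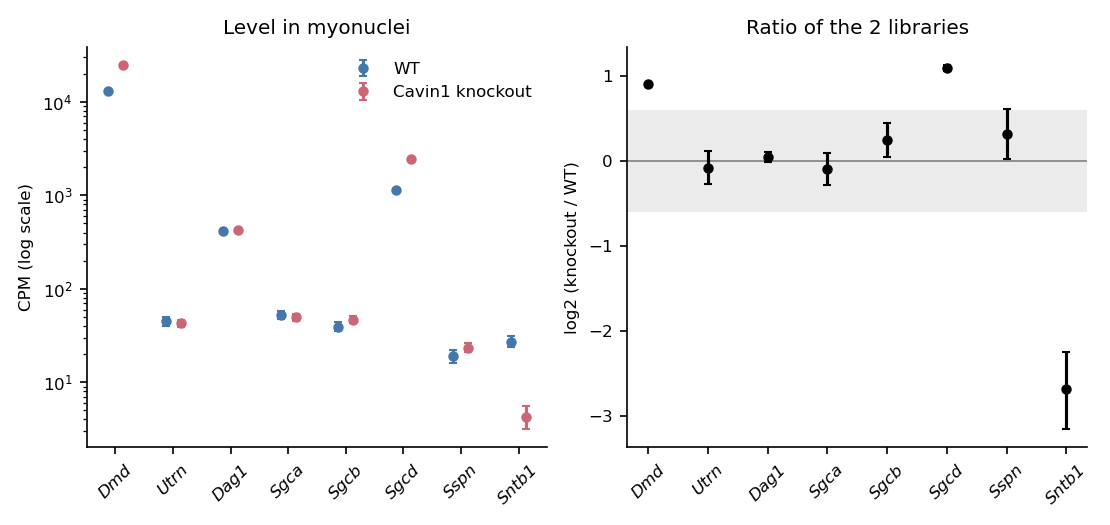
Level of the 8 genes in myonuclei in CPM on a log axis (left, WT in blue and knockout in red) and the log2 ratio of the libraries (right, grey band within 1.5-fold), 1 library per genotype. Points are values of summed UMIs and bars are exact 95% counting intervals. Dmd and Sgcd lie above the band at 0.91 and 1.09, Sntb1 lies below it at -2.67, and the other 5 genes lie within it.

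Dystrophin's own gene was by far the most abundant of the complex. Dmd had 13103 CPM in WT myonuclei (102018 UMIs) and 24574 CPM in knockout myonuclei (302833 UMIs), a log2 ratio of 0.91 (95% interval 0.90 to 0.92) or 1.88-fold. It made up 88.3% of the UMIs of the 8 genes in WT and 89.1% in the knockout. Nearly every myonucleus held the transcript: after thinning to 500 UMIs, 97.8% of 6425 WT and 99.4% of 5406 knockout myonuclei had a Dmd UMI. At that depth the median myonucleus had 6 Dmd UMIs in WT and 11 in the knockout, and the lower quartile of the knockout, 8, equalled the upper quartile of WT. The distributions therefore shifted as a whole, with overlap between them.

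Sgcd encodes delta-sarcoglycan, which forms the core of the sarcoglycan subcomplex with beta-sarcoglycan. Its level was 1139 CPM in WT (8868 UMIs) and 2426 CPM in knockout myonuclei (29897 UMIs), a log2 ratio of 1.09 (1.06 to 1.13) or 2.13-fold. Thinned to 500 UMIs, 40.5% of WT and 65.2% of knockout myonuclei had an Sgcd UMI. It was the largest positive difference among the 8 genes.

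The other sarcoglycans and sarcospan did not share it. Sgca, the muscle-restricted alpha-sarcoglycan gene, had 52.7 CPM in WT and 49.3 in the knockout (log2 ratio -0.09, -0.28 to 0.09). Sgcb, which encodes beta-sarcoglycan, had 39.4 and 46.7 CPM (0.24, 0.04 to 0.45). Sspn, the gene of the tetraspanin-like protein sarcospan, had 18.9 and 23.5 CPM (0.32, 0.03 to 0.61). Their counts were far smaller, 147 to 410 UMIs in WT, and the upper ends of the intervals of Sgca and Sgcb lay under 1.5-fold while that of Sspn reached just past it.

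Dag1, the gene of both dystroglycan subunits, had 414 CPM in WT (3226 UMIs) and 428 CPM in the knockout (5275 UMIs). The log2 ratio of 0.05 (-0.02 to 0.11) was the closest to 0 of the 8. Divided by gene length, Dag1 had the highest level in WT myonuclei, 6.98 CPM per kb against 5.80 for Dmd. In the knockout this order was reversed, at 7.22 CPM per kb for Dag1 and 10.9 for Dmd. On the same scale Sgcd had 1.04 in WT and 2.22 in the knockout, Sgca 3.89 and 3.64, and Sgcb 2.62 and 3.11. Sspn had 0.562 and 0.701 CPM per kb, Utrn 0.0923 and 0.0874, and Sntb1 0.100 and 0.0156, the lowest of the complex in the knockout. Since unspliced RNA and priming within introns add UMIs along a gene, this scale orders genes only roughly.

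Utrn was sparse in myonuclei, with 45.0 CPM in WT (350 UMIs) and 42.6 CPM in the knockout (525 UMIs), a log2 ratio of -0.08 (-0.28 to 0.12). Myonuclei held 26.8% of all Utrn UMIs in WT and 10.2% in the knockout, although they made up 76.6% and 69.6% of nuclei. Set against each other within a library, Dmd had 291 UMIs for each Utrn UMI in WT myonuclei and 576 in knockout myonuclei, a log2 difference of 0.99 (0.79 to 1.18). That difference was 0.44 in nuclei of at least 1000 UMIs, where the ratios were 455 and 618.

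Sntb1, which encodes beta-1-syntrophin, was the member that was lower. Its level was 27.1 CPM in WT (211 UMIs) and 4.22 CPM in knockout myonuclei (52 UMIs), a log2 ratio of -2.67 (-3.15 to -2.24), or 6.38-fold. After thinning, 1.46% of WT and 0.296% of knockout myonuclei had a UMI. Sntb1 thus rested on few molecules in few nuclei in both libraries.

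Gene length moved with the ratio across the transcriptome, but differently among genes with many UMIs. With genes split by length into 5 groups of like size, the longest group held 3004 genes, from 93.3 kb upwards. In it the median log2 ratio was -0.78, and 52.8% were lower in the knockout by at least 1.5-fold; in the 4 groups of shorter genes the medians lay between -0.13 and 0.07. Dmd, Sgcd, Utrn and Sntb1 all belonged to the longest group. Relative to its median, Dmd stood 1.69 higher, Sgcd 1.87 higher, Utrn 0.70 higher and Sntb1 1.89 lower on the log2 scale. Among the 1063 genes of that group with at least 1000 UMIs, such as Dmd and Sgcd, the median was 0.24, with 17.3% higher and 4.89% lower by at least 1.5-fold. For genes of at least 1000 UMIs in the 4 shorter groups the medians were -0.05, -0.005, 0.09 and 0.25, from shortest to longest. The fall with length was thus not seen among genes with that many UMIs. Sntb1 was not among those genes. In a finer split by length, the groups with median lengths of 194 and 396 kb had lower quartiles of -2.83 and -3.22. The Sntb1 ratio of -2.67, at 271 kb, lay above both, so a ratio this low was common among genes of about its length. The part that length plays in the 8 ratios was not tested.

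Depth of the nucleus moved with the Dmd ratio and hardly with that of Sgcd. In WT, Dmd went from 10222 CPM in myonuclei of 500 to 750 UMIs to 17653 CPM in those of 2500 to 5000 UMIs, whereas in the knockout the same ranges gave 20557 and 24614 CPM. The knockout over WT log2 ratio of Dmd was therefore 1.01, 1.00, 0.92, 0.71 and 0.48 in successive ranges of depth up to 5000 UMIs. In the last of these ranges it was below 1.5-fold. Myonuclei under 500 UMIs and those of 5000 or more were in none of the ranges. For Sgcd it was 0.95, 0.90, 0.99, 0.94 and 0.90 in the same ranges. Sntb1 was lower in the knockout in each range from 750 UMIs upwards, by log2 ratios from -1.32 to -2.86. The shallowest range had 0 knockout UMIs and gave no direction for Sntb1, with an interval that reached up to 1.65. Utrn had no steady direction, with log2 ratios of 2.34, 0.46, -0.12, 0.99 and 0.60, the first from 8 knockout UMIs. Shallow WT nuclei also gave a larger share of UMIs to Rn18s, 10.3% in the range of 500 to 750 UMIs. What depth adds to the Dmd difference was not tested.

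**Figure D2:**
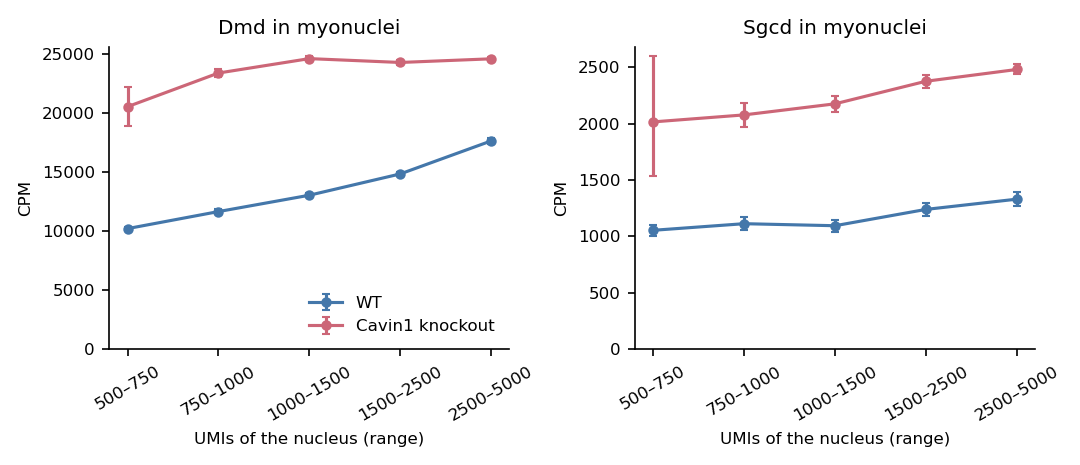
Level of Dmd (left) and Sgcd (right) in myonuclei grouped by UMIs per nucleus, in CPM from 0, with exact 95% counting intervals; WT in blue, knockout in red. The WT line for Dmd climbs from 10222 to 17653 towards the knockout line, while both Sgcd lines stay about as far apart in ratio, at 0.90 to 0.99 on the log2 scale.

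Clusters that both libraries filled gave the same directions for Dmd and Sgcd as all myonuclei did. In clusters 1, 2 and 9, each with at least 300 nuclei per library, Dmd log2 ratios were 0.58, 0.76 and 0.88, the first just under 1.5-fold. Those of Sgcd were 0.79, 0.85 and 0.93, so both genes had smaller ratios in these clusters than over all myonuclei. Among clusters with fewer nuclei in 1 library, clusters 0, 4 and 15 gave Dmd ratios of 1.13, 1.11 and 0.98. Clusters 6, 10 and 13 gave 0.83, 0.74 and 0.54. Utrn was split, at 1.52 in cluster 1, which had the type IIx myosin gene Myh1 among its leading genes, and at -0.38 and -0.61 in clusters 2 and 9, where it had 11 to 26 UMIs a library.

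Sex-chromosome signal moved with Dmd, an X-linked gene, and with some autosomal members. Y-marked myonuclei alone gave 14911 CPM of Dmd in WT and 23648 CPM in the knockout, a log2 ratio of 0.67 (0.65 to 0.68). Xist-marked knockout myonuclei had 31333 CPM, a log2 ratio of 0.41 (0.39 to 0.42) over the Y-marked ones of the same library. Sgcd went the other way within the knockout, at 2525 CPM in Y-marked and 1978 CPM in Xist-marked myonuclei (-0.35, -0.42 to -0.29), and its ratio between Y-marked nuclei of the 2 libraries was 1.05. Utrn was higher in the Xist-marked than the Y-marked knockout myonuclei by 0.86 (0.45 to 1.25), and Dag1 was lower by a log2 ratio of -0.23 (-0.39 to -0.09). Sntb1 between Y-marked nuclei differed by -2.75. Whether sex or animal accounts for these differences within the knockout library cannot be told apart, since mice are not labelled.

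Fibre types were read from the leading adult myosin heavy chain gene of each myonucleus outside the junctions: Myh4 for type IIb, Myh1 for IIx and Myh2 for IIa. There were 4877 WT and 4159 knockout IIb nuclei; IIx had 946 and 546, and IIa 615 and 270. By at least 1.5-fold, 2 of 8 members were higher (13.5% of all genes) and 2 lower (26.8%) in IIb nuclei. In IIx nuclei the counts were 4 higher (17.5%) and 1 lower (13.8%) of 8. In IIa nuclei they were 4 higher (22%) and 0 lower (11.7%) of 7. With no replicate libraries none of these calls was tested.

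Dmd was higher in the knockout in every type. It had 12628 CPM in WT and 24379 CPM in knockout IIb nuclei (log2 ratio 0.95), 15233 and 25566 CPM in IIx (0.75), and 14585 and 23072 CPM in IIa (0.66). In WT the level was thus lowest in IIb, while in the knockout IIa stood at 0.90 times IIx, the widest gap among the types. In IIx and IIa nuclei the Dmd ratio was under 1.5-fold among Y-marked nuclei (0.53 and 0.48) and in nuclei of at least 1000 UMIs (0.57 and 0.53), and in IIa also when Rn18s, Ttn, Malat1 and mitochondrial genes were left out of the totals (0.54). Sgcd showed no order among WT fibre types, at 1120, 1140 and 1151 CPM in IIb, IIx and IIa, and had 2450, 2013 and 2248 CPM in the knockout (log2 ratios 1.13, 0.82 and 0.97).

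Utrn differed in direction between types. In IIb nuclei it had 33.3 CPM in WT (161 UMIs) and 15.3 CPM in the knockout (149 UMIs), a log2 ratio of -1.12 (-1.45 to -0.79). In IIx nuclei it had 30.5 CPM (35 UMIs) and 72.7 CPM (90 UMIs), a ratio of 1.24 (0.68 to 1.86). IIa nuclei had 45.7 CPM (36 UMIs) and 120 CPM (75 UMIs), a ratio of 1.39 (0.81 to 2.01). The near-zero ratio over all myonuclei thus summed opposite differences. In nuclei of at least 1000 UMIs the IIb ratio was -0.57 (-1.01 to -0.09), under 1.5-fold, and those of IIx and IIa were 1.39 and 2.12. Within WT the 3 types did not differ beyond counting error, with IIa over IIb at 1.39-fold (log2 interval -0.10 to 0.99), whereas in the knockout IIa stood 7.88-fold and IIx 4.75-fold above IIb.

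Sntb1 was highest in IIb nuclei in WT, at 31.8 CPM (154 UMIs), against 18.3 CPM in IIx (21 UMIs) and 8.89 CPM in IIa (7 UMIs). IIx and IIa each lay below IIb beyond counting error, but not apart from each other (IIa over IIx -0.98, -2.52 to 0.25). In the knockout it had 3.39, 4.04 and 6.42 CPM, from 33, 5 and 4 UMIs, with no order beyond counting error. The ratio was -3.21 in IIb and -2.08 in IIx nuclei. In IIa nuclei, at -0.40 (-2.69 to 1.51), a difference was not detectable at this depth.

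Dag1 was close between libraries in IIb (429 and 449 CPM) and IIx nuclei (347 and 357 CPM). In IIa nuclei it had 381 CPM in WT and 306 in the knockout (-0.31, -0.58 to -0.05). Sspn had 16.5 CPM in WT IIx nuclei (19 UMIs) and 31.5 CPM in knockout ones (39 UMIs), a ratio of 0.91 (0.10 to 1.80). In IIa nuclei its 10 and 12 UMIs gave 0.59 (-0.74 to 1.97), which includes 0. Sgca and Sgcb lay within 1.5-fold in all 3 types.

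**Figure D3:**
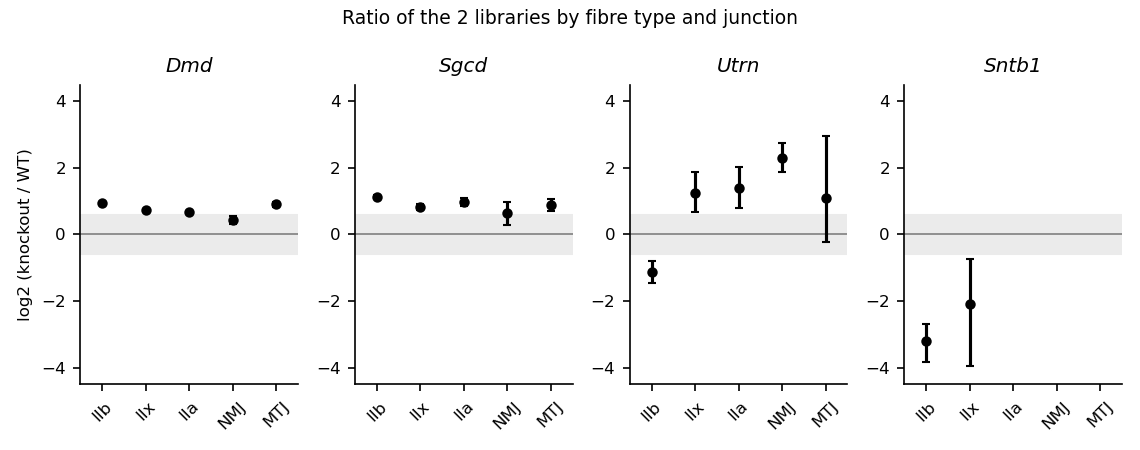
Knockout over WT log2 ratio of 4 members in nuclei of fibre types IIb, IIx and IIa and of the neuromuscular (NMJ) and myotendinous (MTJ) junctions, 1 library per genotype, with exact 95% counting intervals and a grey band within 1.5-fold; groups with under 20 UMIs are not drawn. Dmd and Sgcd lie above 0 throughout, Utrn is at -1.12 in IIb and above 1 elsewhere, although its NMJ ratio is -0.17 when clustered at resolution 0.5, and Sntb1 is below the band in both types drawn. The MTJ interval of Utrn includes 0.

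Nuclei of the specialised ends of the fibre were few, 213 in WT and 43 in the knockout for the neuromuscular junction, where utrophin is concentrated, and 122 and 84 for the myotendinous junction. At the neuromuscular junction Utrn had 416 CPM in WT (68 UMIs) and 2041 CPM in the knockout (128 UMIs), a ratio of 2.29 (1.86 to 2.74). Against the other myonuclei of the same library this was 11.3-fold higher in WT and 63.2-fold higher in the knockout. Of these nuclei, 14.6% in WT and 69.8% in the knockout had a Utrn UMI. Which nuclei formed the class depended on the clustering, and the genotype difference in Utrn went with it. At resolution 0.5 the class held 62 WT and 75 knockout nuclei, 21.0% and 48.0% of them type I, and Utrn had 1095 and 975 CPM, a ratio of -0.17 (-0.60 to 0.28). With each library clustered on its own, 156 and 75 nuclei gave 0.59 (0.19 to 1.01), and with at least 1000 UMIs, 43 and 22 nuclei gave 1.72 (1.20 to 2.28). Utrn was higher than in the other myonuclei of its library under each of these settings, by 16.2-fold to 29.1-fold in WT and 25.7-fold to 74.1-fold in the knockout.

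Dmd at the neuromuscular junction had 9674 CPM in WT and 13125 in the knockout, and its ratio of 0.44 (0.32 to 0.56) lay below 1.5-fold, whereas it was 1.09 at resolution 0.5 and 1.08 with libraries clustered apart. Dag1 had 489 CPM in WT (80 UMIs) and 255 CPM in the knockout (16 UMIs), a ratio of -0.90 (-1.81 to -0.15) that shrank to between -0.28 and -0.44 under the 3 other settings, within 1.5-fold. Of the 4 members with at least 20 UMIs there, 2 were higher (35.9% of 1817 genes) and 1 lower (17.2%). The higher ones were Utrn and Sgcd, the latter at 0.63 and, under the same 3 settings, at 0.55, 0.89 and 0.58.

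Myotendinous nuclei had the highest Dmd and Sgcd levels of all myonuclear groups with over 50 nuclei in both libraries. Dmd had 19151 CPM in WT and 35830 in the knockout (0.90, 0.84 to 0.97), 1.52-fold and 1.47-fold above IIb nuclei of the same library. Sgcd had 2678 and 4939 CPM (0.88, 0.70 to 1.07), 2.39-fold and 2.02-fold above IIb nuclei. The rank of the myotendinous nuclei was thus the same in both genotypes. With each library clustered on its own the class grew to 536 WT and 93 knockout nuclei, and the ratios were 1.41 for Dmd and 1.57 for Sgcd. Of 4 members with at least 20 UMIs, 3 were higher (29.9% of 2449 genes) and 0 lower (11.6%). The third was Utrn, from 5 and 22 UMIs (1.10, -0.23 to 2.97), with an interval that includes 0.

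Outside the fibres, members were read against RNA carried over from myonuclei, gauged by Ttn, which other cell types should lack. Ttn stood at 66.0% of its myonuclear level in WT and 36.7% in knockout fibro-adipogenic-like nuclei, at 52.2% and 51.5% in macrophage-like, 32.3% and 17.1% in adipocyte-like, and 67.7% and 35.7% in mural-like nuclei. Scaling each gene's myonuclear level by that share gave a carry-over level to set beside the measured one. With Ttn as the gauge Dmd stood close to it: the measured level was 0.79 times the carry-over level in WT and 0.93 times in knockout fibro-adipogenic-like nuclei, 0.80 and 1.05 times in macrophage-like nuclei, and 1.05 and 0.98 times in adipocyte-like nuclei. Mural-like nuclei of the knockout stood highest of these 4 classes, at 1.25 times. The muscle genes did not share 1 carry-over level: Neb gave shares near those of Ttn, but Ckm and Acta1, from 14 to 240 UMIs a class, gave larger ones, such as 73.4% and 102% in knockout macrophage-like nuclei. Gauged by Acta1, Dmd stood at 0.515, 0.529, 0.496 and 0.505 times carry-over in knockout fibro-adipogenic-like, macrophage-like, adipocyte-like and mural-like nuclei.

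Dmd in these classes is therefore given as a level of the library and not as expression by the class. It had 6795 CPM in WT and 8372 CPM in knockout fibro-adipogenic-like nuclei (0.30), 5493 and 13260 CPM in macrophage-like nuclei (1.27) and 4464 and 4118 CPM in adipocyte-like nuclei (-0.12). In knockout macrophage-like nuclei, thinned to 500 UMIs, the median was 1 Dmd UMI but the 90th percentile was 12, beside a median of 11 in knockout myonuclei. Among the thinned nuclei, 78.6% of WT and 51.2% of knockout macrophage-like nuclei had a Dmd UMI. The knockout class thus held a smaller share of positive nuclei and a higher mean, and how far nuclei captured together contribute was not tested.

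Utrn ran opposite to Dmd across classes and stood far above carry-over. In adipocyte-like nuclei, which lay mostly in cluster 11 in WT and in cluster 20 in the knockout, it had 1801 CPM in WT (456 UMIs) and 1430 CPM in the knockout (2867 UMIs), which was 124 and 196 times the carry-over level by Ttn, and at least 80.7 and 99.3 times by any of the 4 gauges. Fibro-adipogenic-like nuclei had 508 and 777 CPM (0.61, 0.37 to 0.85) and macrophage-like nuclei 480 and 427 CPM (-0.17, -0.63 to 0.31). Mural-like nuclei, the pericytes and smooth muscle of vessels, had 586 and 1323 CPM (1.17, 0.73 to 1.64). Lymphatic endothelial-like nuclei had 941 CPM in WT, from 32 nuclei, and 2107 CPM in the knockout, from 188. Blood endothelial-like nuclei had 1776 and 2301 CPM, the first from 11 nuclei. The lowest of these levels, in knockout macrophage-like nuclei, was still 1003% of that in knockout myonuclei.

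Sntb1 reached its highest level in adipocyte-like nuclei, where it had 446 CPM in WT (113 UMIs) and 1114 CPM in the knockout (2233 UMIs), a ratio of 1.31 (1.05 to 1.61). After thinning, 20.4% of WT and 37.2% of knockout adipocyte-like nuclei had a UMI, against 1.46% and 0.296% of myonuclei. The direction was thus opposite to that in myonuclei, though the WT and knockout adipocyte-like nuclei came mostly from different clusters. Cluster 11 was named from the adipocyte markers (score 2.38) and cluster 20 from those of lipogenic adipocytes (score 5.45). The same name covers both, so the ratio may not compare nuclei of like kind. Mural-like nuclei held 323 and 359 CPM (0.15, -0.55 to 0.87). Fibro-adipogenic-like nuclei held 44.3 and 29.2 CPM from 17 and 21 UMIs.

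Sgcd was also above carry-over in adipocyte-like nuclei, at 4.05 times that level by Ttn in WT and 5.50 times in the knockout, or 2.63 and 2.79 times by Acta1, with 1489 and 2286 CPM (0.62, 0.47 to 0.77). In fibro-adipogenic-like, macrophage-like and mural-like nuclei it lay between 0.79 and 1.19 times the carry-over level by Ttn. Dag1, expressed in many tissues, was 2.24 and 5.26 times the carry-over level by Ttn in adipocyte-like nuclei, or 1.46 and 2.67 times by Acta1, with 300 and 386 CPM. Sgca, by contrast, had 3 and 21 UMIs in adipocyte-like nuclei, or 11.9 and 10.5 CPM.

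By at least 1.5-fold, 2 of 8 members were higher (33.1% of 6597 genes) and 2 lower (13.8%) in fibro-adipogenic-like nuclei. The higher ones were Utrn and Sspn, and the lower ones Sntb1 and Sgca. Of these, Sspn (8 and 24 UMIs, -0.52 to 2.04) and Sntb1 (-1.60 to 0.41) had intervals that include 0, and Sgca rested on 18 and 13 UMIs (-1.36, -2.53 to -0.27). Utrn fell within 1.5-fold at resolution 0.5 (0.54) and among Y-marked nuclei (0.29), and Sntb1 at resolution 0.5 (-0.21). In macrophage-like nuclei 3 of 5 were higher (27.7% of 3914 genes) and 0 lower (13.9%). These were Dmd, Sgcd and Sntb1. Knockout Dmd and Sgcd there stood at 1.05 and 1.02 times the carry-over level by Ttn. Sntb1 rested on 1 WT and 21 knockout UMIs. In adipocyte-like nuclei 3 of 8, namely Sgcd, Sspn and Sntb1, were higher (30.5% of 8708 genes) and 0 lower (21%). The Sspn value (0.87) came from 3 and 50 UMIs, and its interval includes 0. Sgcd was under 1.5-fold among Y-marked nuclei (0.57) and in nuclei of at least 1000 UMIs (0.52), while Dmd was lower by more than 1.5-fold among Y-marked nuclei (-0.68).

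**Figure D4:**
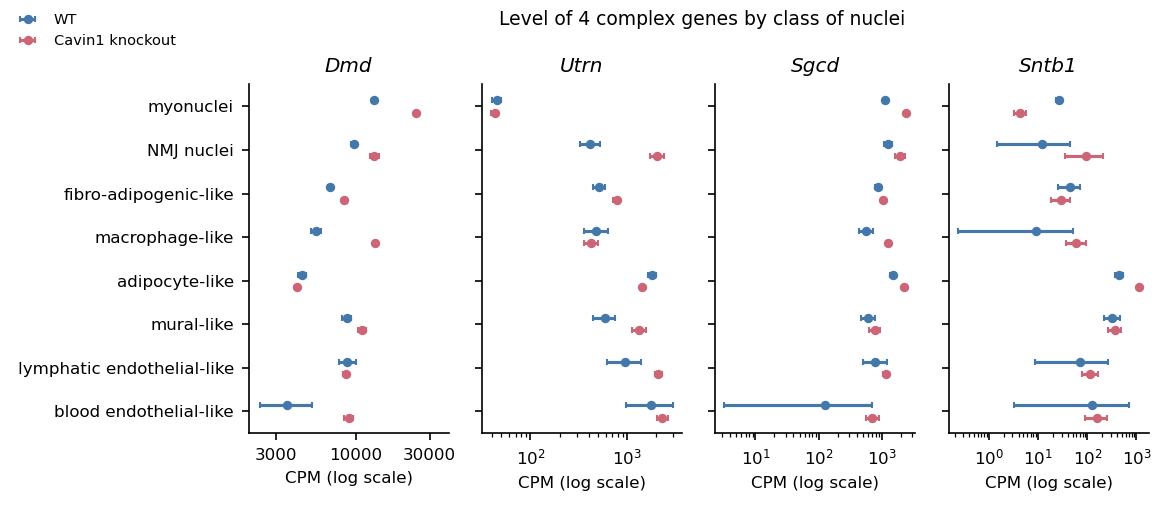
Level of Dmd, Utrn, Sgcd and Sntb1 by class of nuclei in CPM on log axes, WT in blue and knockout in red, 1 library each, with exact 95% counting intervals; myonuclei include the NMJ nuclei. Dmd is highest in myonuclei (24574 in the knockout), while Utrn is lowest there (42.6) and Sntb1 is highest in knockout adipocyte-like nuclei (1114).

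Across 21 profiles of a class in a library with at least 50 nuclei, the genes most like Dmd by Pearson r of log2 levels were Bves (0.95), Pdlim3 (0.94) and Tmem117 (0.94), among 8346 genes with at least 200 UMIs. Those most like Utrn were Map4k4 (0.91), Cers4 (0.90) and Tanc1 (0.90). Dmd and Utrn had r = -0.73. Profiles of 1 library share its depth and carried-over RNA, so these values are descriptions.

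Other genes of the pathway were taken from fixed lists and read in myonuclei, where 12.8% of all genes were higher and 29.9% lower by at least 1.5-fold. Of 12 further members of the complex, 0 were higher and 4 lower, with a median log2 ratio of -0.24. Those lower included 3 sparse genes: Sgcz (42.1 and 3.41 CPM), Sntg1 (41.2 and 2.84 CPM) and Dytn (143 and 3 UMIs, log2 ratio -6.02, -8.53 to -4.66). Dytn also led cluster 4, which was almost wholly of WT nuclei. Sntb2, which encodes beta-2-syntrophin, was within 1.5-fold (-0.17), unlike Sntb1. Nos1, the neuronal nitric oxide synthase bound by syntrophin, had 396 and 266 CPM (-0.57). Dtna, the gene of alpha-dystrobrevin, which binds dystrophin and syntrophins, had 541 and 650 CPM (0.26), and Cav3, the muscle caveolin gene, had 15.5 and 19.6 CPM (0.33).

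Among 18 genes that build the sugar chain through which dystroglycan binds laminin, 15 had at least 20 UMIs, 3 were higher and 3 lower, with a median of 0.14. The higher ones included B3galnt2, a glycosyltransferase gene of this pathway, with 164 and 271 CPM (0.73). Of 12 testable matrix ligands and linkers, 4 were higher and 1 lower, with a median of -0.02. Lama2, the laminin chain that dystroglycan binds in muscle, had 172 CPM in WT (1336 UMIs) and 853 CPM in the knockout (10515 UMIs), a ratio of 2.31 (2.23 to 2.40), the largest positive one of the lists. It was higher in IIb (3.03), IIx (1.75) and IIa nuclei (2.21) alike.

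The integrin route to laminin, an alternative to dystroglycan, had 3 of 9 genes higher and 0 lower, with a median of 0.41. These were Itgb1 (74.9 and 154 CPM, 1.04), Lims1 (114 and 248 CPM, 1.12) and Vcl, the vinculin gene (97.4 and 178 CPM, 0.87). Itga7, the laminin-binding alpha chain of muscle, had 24.0 and 22.1 CPM (-0.12). Of 10 membrane and dystrophin partners with at least 20 UMIs, 0 were higher and 5 lower, with a median of -0.61. The lower ones included Aqp4, the water channel anchored by syntrophin, with 10.9 and 2.76 CPM (-1.97, -2.60 to -1.39), and Cavin1 itself. Cavin1, the gene knocked out, had 35 and 0 UMIs, and both the count and the median include it. Trpc1, also lower, rested on 19 and 6 UMIs. Dysf, the membrane repair gene, had 309 and 392 CPM (0.34).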

How the data were processed

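For each of the 2 quadriceps libraries the authors deposited a matrix of raw UMI counts, which its header credits to Cell Ranger 6.0.0. STAR, Seurat 4.1.1 and the builds mm10 and GRCm38 are listed, without a role, in the submitters' processing notes. No source names the annotation release, or says how introns, strand and barcode calling were handled. The members and lists were chosen with earlier results of these data known.

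Kept were nuclei with 200 or more genes and no more than 5% mitochondrial UMIs (10272 of 10280 WT and 7762 of 7766 knockout barcodes). They were clustered jointly, without integration, in scanpy 1.11.5 (2000 variable genes, 30 components, 15 neighbours, Leiden resolution 1, seed 7). Clusters were called "X-like" where the mean log2 marker score reached 2 and 3 or more markers were detected, limits chosen with the values in view. Clusters with at least 2 repeat-rich or long neuronal transcripts among 10 leading genes stayed unnamed (1173 WT and 21 knockout nuclei), as did 27 further knockout nuclei. No doublets were removed and no caller was run; 221 knockout nuclei held both Xist and Y-linked UMIs. Annotation matched 52093 of 53700 gene IDs.

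UMIs were summed per library and class. Levels carry exact Poisson intervals and ratios exact conditional binomial intervals, at 95%, with 0.5 UMI added to each sum for the point value. The interval of the difference in the Dmd to Utrn ratio is instead a normal approximation at 95%. Since nuclei cannot serve as replicates, genotypes were compared without a test or p-value; "higher" and "lower" mean at least 1.5-fold, over genes with at least 20 UMIs in both sums together. Functions were tested on simulated counts. For thinning, nuclei were sampled to 500 UMIs, leaving out 2055 WT and 0 knockout nuclei. All 8 members were named by rule in every fibre type and in each class with at least 100 nuclei per library, and from each list at most 3 genes of highest and 3 of lowest ratio, plus Dtna, Nos1, Cav3, Lama2 and Itga7; Sntb2 was chosen after its value was seen. Some genes that the rule names are not reported here. Alternatives covered filters, depth, clustering, sex-chromosome signal, scaling, pseudocount and gene length.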

Additional observations from a re-analysis of the deposited data

Results flagged for a closer look

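A member is listed here if its knockout over WT interval was wholly positive in 1 group of nuclei and wholly negative in another. That held for 4 members. The pair of groups furthest apart is given, so intervals that do not overlap are part of the rule and not a result. With 1 library per genotype none of these differences was tested. Utrn stood at a log2 ratio of 1.39 in IIa and -1.12 in IIb nuclei, a difference of 2.50. Sntb1 stood at 2.18 in macrophage-like nuclei, from 1 and 21 UMIs, and at -3.21 in IIb nuclei, a difference of 5.40. For Dmd the ratio was 1.27 in macrophage-like nuclei but -0.12 in the adipocyte-like ones, a difference of 1.39, while Ttn stood at 51.5% and 17.1% of its myonuclear level in these knockout classes. Dag1 stood at 0.35 in adipocyte-like and -0.31 in IIa nuclei, a difference of 0.667.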

How the results depend on the processing

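Over 14 alternatives the Dmd log2 ratio in myonuclei ranged from 0.67 to 1.69 and that of Sgcd from 0.70 to 1.87, both past 1.5-fold in all 14. Both upper ends came from subtracting the median of genes of like length, -0.78. Among genes of that length with at least 1000 UMIs, such as Dmd and Sgcd, the median was 0.24. Sntb1 was past 1.5-fold in the same direction in 13 of 14. Over all nuclei without clusters, which adds the adipocyte-like nuclei, the Sntb1 ratio was 1.79. The median ratio of the 8 genes (0.15) was 0.56 over all nuclei, 0.34 for Xist-marked knockout against Y-marked WT nuclei and 0.35 after subtracting the median of genes of like length, and between 0.03 and 0.24 otherwise. The log2 difference in the Dmd to Utrn ratio (0.99) was 0.46 with at least 500 genes, 0.44 with at least 1000 UMIs, 1.26 at resolution 0.5, 1.20 with the repeat-led cluster counted in, 0.67 for Y-marked nuclei, 0.22 for Xist-marked against Y-marked nuclei and -0.50 over all nuclei; the cause was not tested. Of 298 knockout over WT ratios of single genes under an alternative, 215 stayed within the counting interval and 30 had the opposite sign, 28 of them for ratios within 1.5-fold; the other 2 were Sntb1 over all nuclei and Utrn in neuromuscular nuclei at resolution 0.5 (-0.17). The filter at 1000 UMIs within fibre types and classes, and the CPM without Rn18s, Ttn, Malat1 and mitochondrial genes within fibre types, were chosen after seeing the data, as were the settings for junction nuclei and the carry-over gauges other than Ttn. Depth limits Sgca, Sgcb, Sspn and Sntb1 outside IIb nuclei. No paired analysis was possible because each group held 1 library.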

Other observations

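Groups outside the comparisons gave further values for the complex. Type I nuclei, led by Myh7, numbered 14 in WT and 34 in the knockout and held 11830 and 23735 CPM of Dmd, and 1437 and 2482 CPM of Sgcd. Myonuclei without a leading adult myosin gene held 11099 and 24355 CPM of Dmd, and their Utrn stood at 62.6 and 132 CPM. Satellite-like nuclei, led by Pax7, the gene that marks muscle stem cells, numbered 262 and 32 and held 10173 and 23310 CPM of Dmd, with Ttn at 102% and 98.1% of its myonuclear level. The unnamed repeat-led cluster held 8759 CPM of Dmd in 1173 WT nuclei and 13631 CPM in 21 knockout nuclei. Its Utrn was 143 CPM in WT (123 UMIs) and 2130 CPM in the knockout (45 UMIs), and its Sntb1 had 43 and 15 UMIs. The 50 B cell-like nuclei of the knockout held 12124 CPM of Dmd with Ttn at 46.2% of its myonuclear level, and 291 CPM of Utrn.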
